A study of Mus musculus with 12 samples.

Results

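The Slc25 genes encode the mitochondrial carriers, a family of membrane proteins that move nucleotides, carboxylates, amino acids, cofactors and ions across the inner mitochondrial membrane. They were taken as every line of the expression table whose symbol is Slc25a followed by a number, which gave 47 genes of the 25162 in the table. A mean of 1 FPKM or more across columns was reached by 31 of the 47, which were compared among 10110 such genes. FPKM is a fragment count scaled to transcript length and library size, here adjusted by the authors to a spike-in RNA. The symbols, and not measured values, chose the members.

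The groups were oocytes of the KO and WT genotypes at the stages NGO, GO and FGO, with 2 samples of 10 mouse oocytes per group in the labels and 100 pg of ERCC spike-in RNA per sample. The KO columns are headed Rnaseh1 oo-/-, the deletion in oocytes, and the WT columns Rnaseh1 fl/fl, so the control carries the floxed gene and no deletion. The sources used here do not give the driver of the deletion, the age of the mice or the meaning of the stage names, which in oocyte work usually denote the non-growing, the growing and the full-sized oocyte. The table holds 1 column per group, so no difference below has a replicate check, a p-value or an SD, and the read depth behind a value is unknown.

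Rnaseh1 encodes RNase H1, which removes RNA paired with DNA in the nucleus and is needed for mitochondrial DNA replication. It was listed at 0.931, 3.0998 and 8.02 FPKM in KO at NGO, GO and FGO, against 8.61, 27.8 and 29.1 FPKM in WT. All 15 oocyte markers, such as Zp3 and Gdf9, were at 1 FPKM or more in every column except WT FGO, where 14 were. The 21 granulosa cell markers summed to 8.1, 18.3 and 84.6 FPKM in KO and 4.4, 22.8 and 38.3 FPKM in WT. Of these, Amh and Foxl2 stood at 0.46 FPKM or less in every column, while 10 markers in KO FGO and 6 in WT FGO reached 1 FPKM. The highest was Esr2, at 37.3 FPKM in KO FGO and 21.3 FPKM in WT FGO, a difference of 0.02 after rescaling. Cyp19a1 was at 10.4 FPKM in KO FGO and 6.16 FPKM in WT FGO, a difference of -0.03 after rescaling. Inha was at 9.32 FPKM in KO FGO and 1.17 FPKM in WT FGO, and Gja1 at 6.96 and 0.965 FPKM. Their differences were 1.44 and 1.23 after rescaling. They were the only 2 of the 7 markers compared that were then 2-fold higher, beside 1.68% of all genes. Both reached a mean of 1 FPKM only through the KO FGO column, where they are high, so the filter partly sets this count. The 8 theca and stroma markers summed to at most 4.2 FPKM in any column, and the 8 markers of immune, endothelial and blood cells to at most 17.1 FPKM. As deposited, the granulosa sum was thus higher in KO at NGO and FGO and lower at GO. After rescaling the median difference of the 7 granulosa markers compared was 0.07, -0.15 and 0.15 at NGO, GO and FGO. At NGO 1 of the 7 was then 2-fold higher in KO, Inha at 1.03, beside 0.129% of all genes. At GO 0 were, beside 1.05% of all genes. Most carriers were higher in KO at FGO, and the part of granulosa RNA in their values was not tested.

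Mitochondrial carriers are made in the cytosol and inserted into the inner membrane by the TIM22 machinery. The best known are the ADP/ATP carriers, which bring ADP into the mitochondrion and let ATP out. Oocytes hold very large numbers of mitochondria and take most of their energy from pyruvate oxidation, and the growing oocyte passes these mitochondria on to the embryo.

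Promoters of 3 genes are shown. Slc25a36 and Slc25a30 were the members with the largest excess in KO oocytes, and Slc25a31 was the most abundant member and had a rescaled FGO difference near the median of the members. Each line gives the 250 bases before the annotated start, from RefSeq on GRCm38.p6, with matches to 4 motifs in capitals.
Slc25a36, chr9:97111042-97111291, minus strand: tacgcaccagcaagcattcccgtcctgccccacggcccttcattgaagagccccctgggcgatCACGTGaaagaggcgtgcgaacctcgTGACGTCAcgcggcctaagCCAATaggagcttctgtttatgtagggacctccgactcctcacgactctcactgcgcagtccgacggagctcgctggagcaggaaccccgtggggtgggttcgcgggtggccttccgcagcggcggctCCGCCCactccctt
Slc25a30, chr14:75787038-75787287, minus strand: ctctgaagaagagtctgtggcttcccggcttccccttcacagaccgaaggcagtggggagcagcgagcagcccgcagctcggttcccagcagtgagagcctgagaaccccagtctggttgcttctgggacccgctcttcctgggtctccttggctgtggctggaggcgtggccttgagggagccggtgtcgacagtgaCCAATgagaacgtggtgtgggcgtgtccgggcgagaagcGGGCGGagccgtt
Slc25a31, chr3:40708621-40708870, plus strand: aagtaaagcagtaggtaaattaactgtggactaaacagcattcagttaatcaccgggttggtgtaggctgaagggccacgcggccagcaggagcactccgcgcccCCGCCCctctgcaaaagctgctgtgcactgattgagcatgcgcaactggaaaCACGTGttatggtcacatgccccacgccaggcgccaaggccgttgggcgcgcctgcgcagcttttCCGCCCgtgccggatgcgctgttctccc
The capitals mark the cyclic AMP response element TGACGTCA, the GC box GGGCGG, the CCAAT box CCAAT and the E-box CACGTG, each searched on both strands. No match of one motif overlapped a match of another in these windows. Promoter sequences were found for 36 of the 47 members and for 24 of the 31 compared, as 32 windows.

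The Slc25a36 window held 1 match to each of the 4 motifs, with the response element 154 bases before the start. The Slc25a30 window held 1 GC box, 8 bases before the start, and 1 CCAAT box, 48 bases before it. Slc25a31 had 2 GC boxes, 1 E-box and 1 match to the motif of NRF1, left in lower case. The response element was in 2 of the 32 member windows (Slc25a36 and Slc25a25), that is 6.25%, and in 2.66% of the 10402 windows of all genes compared. The GC box was in 78.1% of member windows and 57.0% of all, the CCAAT box in 46.9% and 36.7%, and the E-box in 25% and 8.52%. The NRF1 motif was in 6.25% and 8.98%, and the TATA box TATAAA in 0 of 32 member windows and 6.61% of all. All of these are shares of windows. The 32 member windows come from 24 genes, so a gene with several windows can count more than once. These matches describe letters and are not shown to be bound.

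Summed over all 47 members, the carriers took 271, 696 and 1209 FPKM in KO at NGO, GO and FGO, and 316, 725 and 641 FPKM in WT. As a share of the summed FPKM of each column this was 0.205%, 0.196% and 0.166% in KO, against 0.202%, 0.189% and 0.139% in WT. The KO and WT shares thus lay within 0.01 of a percentage point of each other at NGO and GO, and further apart at FGO. Without Slc25a26 the FGO shares were 0.144% in KO and 0.127% in WT.

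A few genes made up much of the total. The 4 most abundant, Slc25a31, Slc25a26, Slc25a17 and Slc25a15, together held 46.7%, 52.1% and 51.5% of the carrier FPKM in KO and 47.8%, 54.4% and 50.7% in WT. The next were Slc25a4, Slc25a38, Slc25a5, Slc25a1, Slc25a39 and Slc25a3, in the order of their means over all columns, between 38.7 and 19.6 FPKM.

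**Figure D1:**
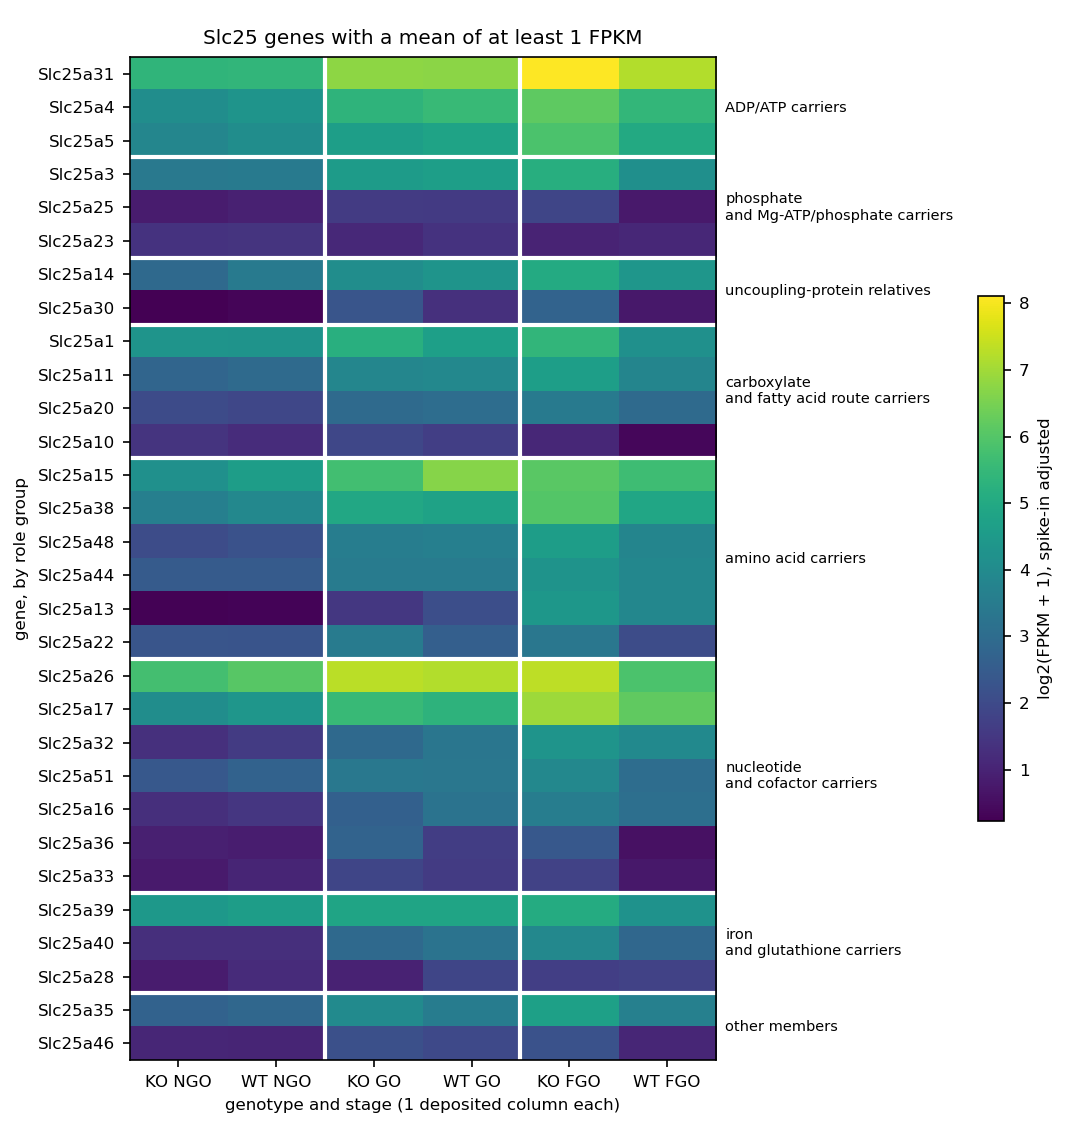
Levels of 30 of the 31 Slc25 genes compared, as log2(FPKM + 1) by color, in the 6 deposited columns (KO left of WT at each stage), with genes grouped by the role of their protein. Slc25a31, an ADP/ATP carrier, and Slc25a26, the carrier of S-adenosylmethionine, were the most abundant, and Slc25a30 and Slc25a36 were low in all columns but KO GO and KO FGO.

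Of the 16 members not compared, 14 stayed under 1 FPKM in every column. Slc25a12, the second aspartate and glutamate carrier beside Slc25a13, reached 1.99 FPKM in KO FGO, against 0.867 FPKM in WT FGO. Slc25a29, a carrier of basic amino acids, reached 1.24 FPKM in KO GO and 1.05 FPKM in WT GO. Slc25a41 and Slc25a54 were listed at 0 in every column. Also below the filter were Slc25a2, Slc25a18, Slc25a21, Slc25a24, Slc25a27, Slc25a34, Slc25a37, Slc25a42, Slc25a43, Slc25a45, Slc25a47 and Slc25a53. None of the 31 members compared needed the KO FGO column to reach a mean of 1 FPKM.

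Differences between KO and WT are given on the log2(FPKM + 1) scale and counted as 2-fold when they reach 1 in size. This scale understates changes of low genes. Since 95.4% of the 10110 genes compared were higher in KO FGO on the authors' scale (median log2 difference 0.72), counts, medians and most differences of single members are also given after rescaling, which divides each column by the median, over genes, of its ratio to their geometric mean. Rescaling brought the median of all genes to 0.01 at NGO, -0.03 at GO and 0.02 at FGO. The labels give 10 oocytes for every sample. From the values of bulk oocyte RNA alone, fewer contributing cells and less RNA per cell cannot be told apart.

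At NGO no member differed 2-fold in either direction, where 0.0297% of all genes were at least 2-fold higher in KO and 0.326% at least 2-fold lower. The median of the 31 members was -0.15, beside -0.11 for all genes. The values ran from -0.57 for Slc25a14, a relative of the uncoupling proteins at 6.50 FPKM in KO and 10.2 FPKM in WT, to 0.19 for Slc25a10, the dicarboxylate carrier, at 1.68 FPKM in KO and 1.35 FPKM in WT. At GO 1 member was at least 2-fold higher in KO (0.95% of all genes) and 0 were at least 2-fold lower (2.03% of all genes). The member median was -0.02, beside -0.09 for all genes. At FGO 12 members, or 38.7%, were at least 2-fold higher in KO, beside 25.8% of all genes, and 0 were at least 2-fold lower, beside 0.158%. The member median was 0.85, beside 0.72 for all genes, and 29 of 31 members (93.5%) had the higher value in KO, beside 95.4% of all genes. After rescaling 20 members (64.5%) had it, beside 52.1% of all genes.

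After rescaling the FGO count was 2 members, Slc25a30 and Slc25a36, beside 1.68% of all genes, and the median was 0.09. At GO it was still Slc25a36 alone, beside 1.05% of all genes, with a median of 0.05. At NGO it was 0 members, beside 0.129% of all genes, with a median of -0.03. None was 2-fold lower after rescaling at NGO, GO or FGO, beside 0.356%, 1.28% and 0.94% of all genes. Values above 0 at both GO and FGO after rescaling were found for 15 members (48.4%) and 35.6% of all genes, and values below 0 at both for 9 members (29.03%) and 36.3% of all genes. By role, the members 2-fold higher in KO FGO as deposited were 0 of 3 ADP/ATP carriers, 2 of 3 phosphate carriers, 1 of 2 uncoupling-protein relatives and 1 of 4 carboxylate and fatty acid route carriers. They were 2 of 6 amino acid carriers, 3 of 8 nucleotide and cofactor carriers, 1 of 3 iron and glutathione carriers and 2 of 2 others. The family as a whole thus lay close to the median gene at each stage, and the members differed among themselves.

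**Figure D2:**
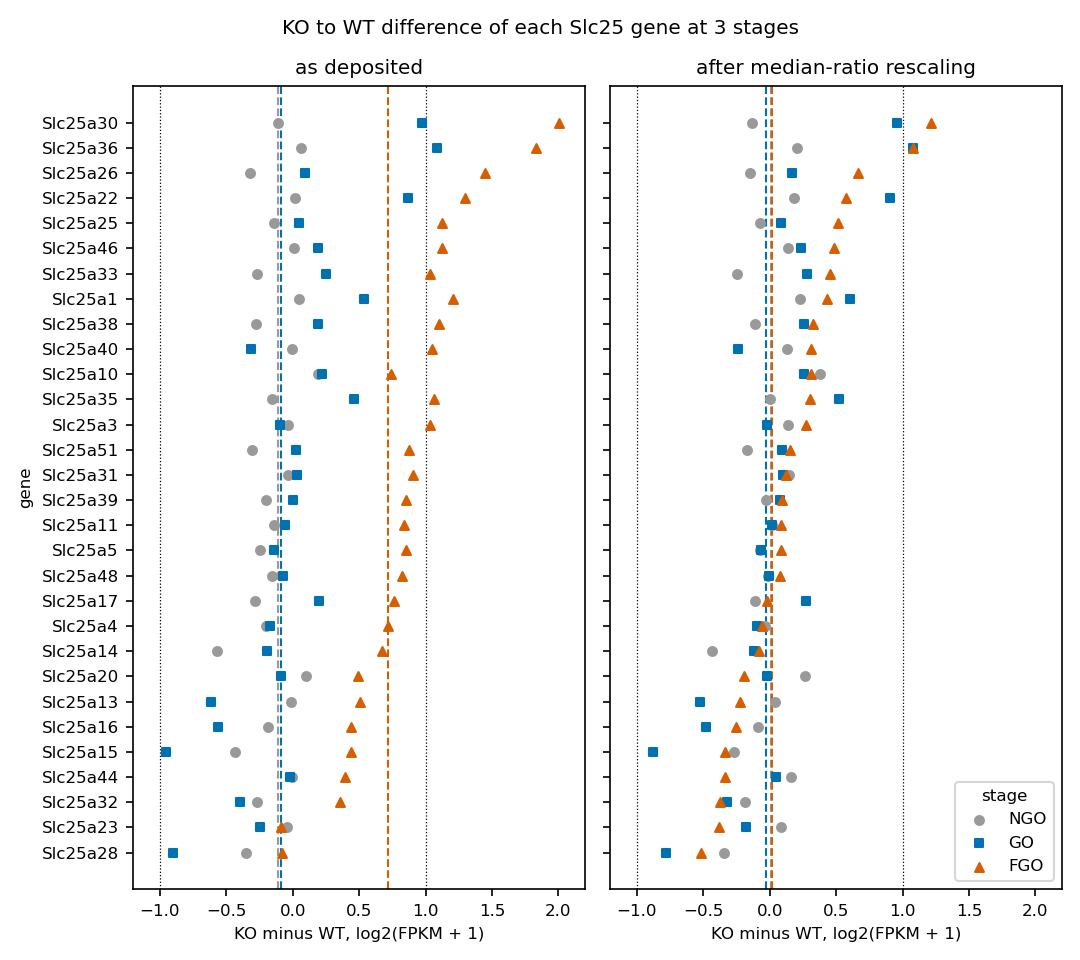
KO minus WT difference of 30 of the 31 Slc25 genes compared on the log2(FPKM + 1) scale at NGO (grey circles), GO (blue squares) and FGO (orange triangles), as deposited on the left and rescaled on the right. Dashed lines mark the median of all 10110 genes at each stage and dotted lines a 2-fold difference; Slc25a30 and Slc25a36 lie beyond it at FGO in both panels.

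Among the ADP/ATP carriers, Slc25a31 was the most abundant in every column. It encodes the form that is known from germ cells of both sexes and early embryos in mouse, and it lies on chromosome 3 from 40708871 to 40726094 in mm10. Slc25a31 was at 41.1, 109 and 275 FPKM in KO at NGO, GO and FGO, against 42.1, 107 and 146 FPKM in WT. The genotypes were close at NGO and GO, with KO to WT ratios of 0.976 and 1.02, and stood apart at FGO, with a ratio of 1.88 as deposited and 1.09 after rescaling.

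Slc25a4, the form of heart and skeletal muscle, was at 16.03, 40.1 and 69.9 FPKM in KO, against 18.6, 45.3 and 42.1 FPKM in WT. Slc25a5, the form of dividing cells, was at 13.4, 24.3 and 57.9 FPKM in KO, against 16.005, 26.8 and 31.5 FPKM in WT. Its transcript shares at least 95% identity over 72.3% and 71.5% of its length with 2 processed pseudogenes, Gm5529 and Gm5560, so its own value is uncertain. Both genes were slightly lower in KO at NGO and GO and higher at FGO as deposited. After rescaling the FGO differences were -0.06 for Slc25a4, which turns its direction, and 0.08 for Slc25a5.

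Slc25a31 held 58.3%, 62.8% and 68.2% of the FPKM of the 3 ADP/ATP carriers in KO and 54.8%, 59.7% and 66.5% in WT. The germ cell form was thus the main one at every stage, and its share was higher at each later stage in both genotypes. None of the 3 differed 2-fold between KO and WT at any stage.

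Slc25a3 brings phosphate, the other substrate of ATP synthesis, and copper into the matrix. It was at 9.74, 22.4 and 35.1 FPKM in KO, against 10.01, 23.97 and 16.6 FPKM in WT. The FGO difference was 1.04 as deposited and 0.27 after rescaling. Slc25a25 and Slc25a23 exchange Mg-ATP for phosphate under the control of calcium. Slc25a25 was at 0.766, 2.05 and 2.69 FPKM in KO, against 0.944, 1.96 and 0.695 FPKM in WT, an FGO difference of 1.12 (0.52 rescaled). Slc25a23 was at 1.59, 1.20 and 1.04 FPKM in KO, against 1.67, 1.61 and 1.18 FPKM in WT, and was 1 of the 2 members with a lower value in KO FGO.

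The uncoupling-protein relatives went apart. Slc25a30 lies on chromosome 14 and its protein is known from mouse kidney mitochondria. It was at 0.173, 3.95 and 5.62 FPKM in KO, against 0.265, 1.52 and 0.653 FPKM in WT. KO and WT were both under 0.3 FPKM at NGO, and KO was 2.61 times WT at GO and 8.60 times at FGO (4.97 times after rescaling). The log2 differences were -0.11, 0.98 and 2.001, the last being the largest of any member. The GO difference was just under the 2-fold limit, and over it, at 1.33, with a pseudocount of 0.1. Slc25a14 was at 16.2 and 31.7 FPKM in KO GO and KO FGO, against 18.6 and 19.5 FPKM in WT, with an FGO difference of 0.67 as deposited and -0.08 after rescaling.

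**Figure D3:**
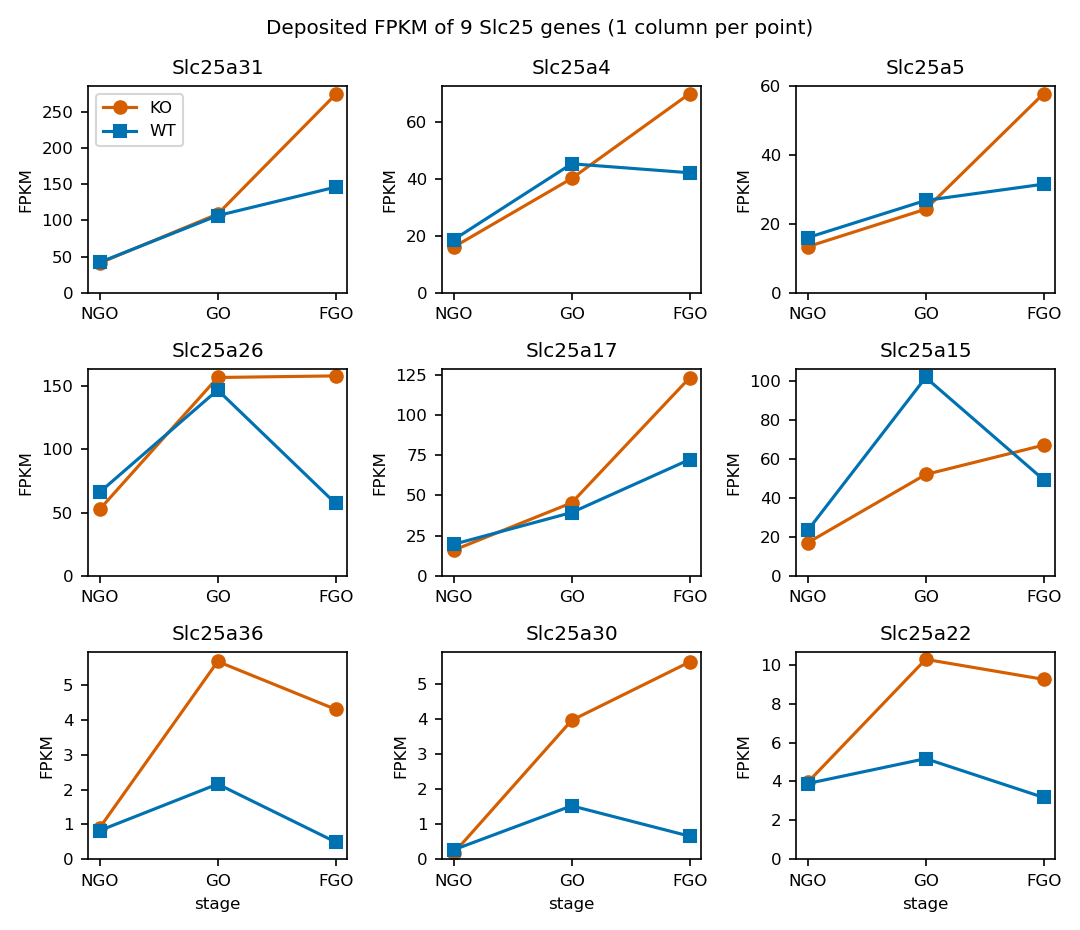
Deposited FPKM of 9 Slc25 genes at NGO, GO and FGO in KO (orange circles) and WT (blue squares), 1 column per point, each panel with its own axis from 0. KO and WT nearly coincide at NGO in most panels, Slc25a26 ends at 158 FPKM in KO FGO against 57.2 FPKM in WT FGO, and Slc25a15 is lower in KO than in WT at GO.

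Of the carboxylate and fatty acid route carriers, Slc25a1 exports citrate for fatty acid synthesis. It was at 18.9, 36.1 and 41.3 FPKM in KO, against 18.3, 24.6 and 17.3 FPKM in WT. Its differences were 0.05, 0.54 and 1.21 as deposited and 0.22, 0.60 and 0.43 after rescaling, so KO was higher on both scales at GO and FGO. Slc25a11, the oxoglutarate and malate exchanger, was at 6.02, 13.4 and 24.1 FPKM in KO, against 6.73, 13.96 and 13.1 FPKM in WT. Slc25a20, which carries acylcarnitines for fatty acid oxidation, was at 3.05, 6.68 and 9.81 FPKM in KO, against 2.78, 7.17 and 6.69 FPKM in WT. Slc25a10 was at 2.73 and 1.14 FPKM in KO GO and KO FGO, against 2.2004 and 0.279 FPKM in WT. These 3 stayed under 2-fold at each stage on the log2(FPKM + 1) scale. For Slc25a10 at FGO (0.74, and 0.31 after rescaling) that rests on the pseudocount, as its FPKM values were more than 2-fold apart. The FGO difference of Slc25a20 turned with the scale, at 0.49 as deposited and -0.20 after rescaling.

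Among the amino acid carriers, Slc25a15, the ornithine carrier of the urea cycle and polyamine route, was at 16.996, 51.997 and 67.0 FPKM in KO, against 23.3, 102 and 49.3 FPKM in WT. KO was lower at NGO and GO and higher at FGO, with differences of -0.44, -0.95 and 0.44 as deposited and -0.27, -0.88 and -0.34 after rescaling. The GO value, a KO to WT ratio of 0.511, was the lowest member difference at GO on the log2(FPKM + 1) scale, while the iron carrier Slc25a28 had the lower ratio. The FGO direction thus flips with the scale.

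Slc25a22, a glutamate carrier, was at 3.95, 10.3 and 9.25 FPKM in KO, against 3.89, 5.17 and 3.17 FPKM in WT. The genotypes were level at NGO, and KO was 1.99 times WT at GO and 2.92 times at FGO (1.69 times after rescaling). Its differences were 0.02, 0.87 and 1.30 as deposited and 0.18, 0.91 and 0.57 after rescaling. Slc25a38 brings glycine in for heme synthesis. It was at 11.5, 29.8 and 62.8 FPKM in KO, against 14.1, 26.02 and 28.7 FPKM in WT, an FGO difference of 1.10 (0.33 rescaled).

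Slc25a13, or citrin, carries aspartate and glutamate for the malate-aspartate shuttle. It was at 0.219, 1.85 and 20.05 FPKM in KO, against 0.229, 3.37 and 13.8 FPKM in WT. In both genotypes it went up more steeply over the stages than any other member, and KO was lower at GO and higher at FGO as deposited. After rescaling it was below WT at both, at -0.52 and -0.23. Slc25a44, of branched-chain amino acids, was at 10.3 and 18.2 FPKM in KO GO and KO FGO, against 10.5 and 13.7 FPKM in WT, with an FGO difference of 0.39 as deposited and -0.34 after rescaling. Slc25a48, a choline carrier placed in this group, was at 10.8 and 23.7 FPKM in KO, against 11.4 and 12.9 FPKM in WT.

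Among the nucleotide and cofactor carriers, Slc25a26 brings S-adenosylmethionine, the methyl donor, into mitochondria. It lies on chromosome 6 from 94500295 to 94604659. Slc25a26 was at 52.6, 157 and 158 FPKM in KO, against 66.1, 147 and 57.2 FPKM in WT. As deposited, KO FGO stayed at the level of KO GO, while WT FGO was well below WT GO. After rescaling both fell, with steps of -0.86 in KO and -1.36 in WT. At FGO the difference was 1.45 as deposited and 0.66 after rescaling. It shares 144 exonic bases with Lrig1 on the opposite strand, and reads there cannot be told apart in a library that does not mark strand. Lrig1 was at 21.7 FPKM in KO FGO and 13.5 FPKM in WT FGO.

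Slc25a36 and Slc25a33 both carry pyrimidine nucleotides, which mitochondria need for their DNA and RNA. Slc25a36, on chromosome 9, was at 0.905, 5.69 and 4.31 FPKM in KO, against 0.822, 2.16 and 0.493 FPKM in WT. Its differences were 0.06, 1.08 and 1.83 as deposited and 0.21, 1.08 and 1.08 after rescaling, the only member past 2-fold at both GO and FGO on both scales. Slc25a33 was at 0.731, 2.64 and 2.45 FPKM in KO, against 1.08, 2.06 and 0.684 FPKM in WT, an FGO difference of 1.04 (0.45 rescaled). Both genes were higher in KO at GO and FGO on both scales.

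Slc25a17, of peroxisomes rather than mitochondria, carries coenzyme A and related cofactors and was at 15.98, 45.4 and 123 FPKM in KO, against 19.7, 39.4 and 72.3 FPKM in WT. Slc25a32, of folate and flavin, was at 6.59 and 18.8 FPKM in KO GO and KO FGO, against 9.01 and 14.5 FPKM in WT. Slc25a16, linked to coenzyme A, was at 5.30 and 10.8 FPKM in KO, against 8.31 and 7.69 FPKM in WT. Slc25a51, the NAD carrier in human cells, was at 9.35 and 14.01 FPKM in KO, against 9.18 and 7.17 FPKM in WT. Slc25a32 and Slc25a16 were lower in KO at GO, with differences of -0.40 and -0.56 as deposited and -0.32 and -0.48 after rescaling. At FGO they were at 0.36 and 0.44 as deposited and -0.37 and -0.25 after rescaling, so the direction turned with the scale. Slc25a17 turned likewise, at 0.76 as deposited and -0.02 after rescaling. On the log2(FPKM + 1) scale none of Slc25a17, Slc25a32, Slc25a16 and Slc25a51 was 2-fold apart at any stage.

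Slc25a28, or mitoferrin-2, carries iron. It was at 0.795, 0.958 and 2.24 FPKM in KO, against 1.29, 2.67 and 2.43 FPKM in WT, and so was lower in KO at each stage on both scales. The GO ratio was 0.359, a difference of -0.90 (-0.78 rescaled), and it passed 2-fold with a pseudocount of 0.1. Slc25a39 and its paralogue Slc25a40 are linked to glutathione import. Slc25a39 was at 20.4, 27.4 and 32.9 FPKM in KO, against 23.6, 27.4 and 17.8 FPKM in WT. Slc25a40 was at 1.43, 6.58 and 13.9 FPKM in KO, against 1.44, 8.43 and 6.198 FPKM in WT, with differences of -0.01, -0.32 and 1.05 as deposited and 0.13, -0.24 and 0.31 after rescaling.

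Of the remaining members, Slc25a46 sits in the outer membrane and takes part in mitochondrial fission and fusion. It was at 1.10, 3.46 and 3.61 FPKM in KO, against 1.08, 2.90 and 1.11 FPKM in WT, an FGO difference of 1.12 (0.49 rescaled). Slc25a35 was at 5.49, 14.96 and 25.2 FPKM in KO, against 6.22, 10.6 and 11.6 FPKM in WT, an FGO difference of 1.06 (0.30 rescaled). Slc25a35 shares 1151 exonic bases, 31.6% of its longest transcript, with Rangrf on the opposite strand, and reads there cannot be told apart. Rangrf was at 10.3 FPKM in KO FGO and 6.16 FPKM in WT FGO. Other members also share exonic bases with a gene on the opposite strand. Among them were Slc25a33 (281 bases), Slc25a25 (379 bases) and Slc25a46 (383 bases), each 2-fold higher in KO FGO as deposited, and Slc25a10, Slc25a11 and Slc25a23.

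Steps between stages were compared within each genotype. The steps into and out of GO share the GO column of their genotype. From NGO to GO, 22 members were at least 2-fold higher at GO in KO, beside 57.6% of all genes, and 13 in WT, beside 54.8% of all genes. The member medians were 1.19 in KO and 0.95 in WT, and those of all genes 1.10 and 1.06. None was 2-fold lower at GO in either genotype, beside 0.089% of all genes in KO and 0.129% in WT. After rescaling, 1 member was 2-fold higher in each genotype, Slc25a30 in KO (5.37% of all genes) and Slc25a13 in WT (6.06%). Lower by 2-fold was then Slc25a23 in KO (2.59% of all genes) and Slc25a39 in WT (3.27%).

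From GO to FGO, 8 members were at least 2-fold higher at FGO in KO, beside 39% of all genes, and 1 in WT (Slc25a13), beside 6.5% of all genes. At least 2-fold lower were 0 in KO, beside 0.514% of all genes, and 4 in WT (Slc25a10, Slc25a15, Slc25a26 and Slc25a36), beside 9.22% of all genes. The member medians were 0.72 in KO and -0.10 in WT, beside 0.84 and 0.08 for all genes. After rescaling Slc25a13 alone was 2-fold higher at FGO, in KO (6.42% of all genes) and in WT (5.78%). At least 2-fold lower were then Slc25a10 in KO (3.66% of all genes) and Slc25a10, Slc25a15 and Slc25a26 in WT (8.33%). Slc25a26 was at 1.01 times its GO level in KO FGO and 0.389 times in WT FGO as deposited. For Slc25a15 these figures were 1.29 in KO and 0.485 in WT, and its rescaled steps were -0.50 in KO and -1.04 in WT. As deposited, the highest stage was FGO for 26 members in KO (83.9%, beside 89.4% of all genes) and 11 in WT (35.5%, beside 54.5%). It was GO for 4 members in KO (12.9%, beside 9.86%) and 19 in WT (61.3%, beside 43.01%). After rescaling the commonest highest stage of the 31 members was NGO, for 15 in KO and 17 in WT, beside 40.9% and 37.5% of all genes. It was FGO for 9 members in KO and 7 in WT, beside 42.4% of all genes in each. It was GO for 7 in KO and 7 in WT, beside 16.8% and 20.1%.

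**Figure D4:**
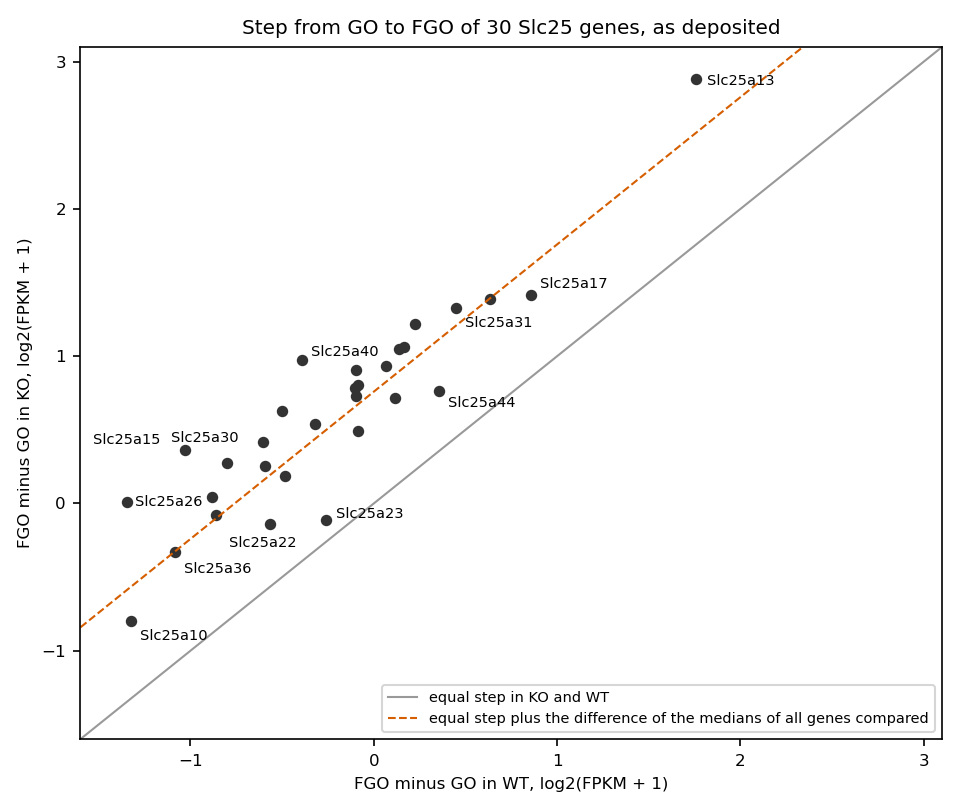
Step from GO to FGO of 30 of the 31 Slc25 genes compared in KO (vertical axis) against WT (horizontal axis), each on the log2(FPKM + 1) scale as deposited. Every gene drawn lies above the grey line of equal steps, and most lie near the dashed line, which adds the difference between the medians of all genes compared; Slc25a26 and Slc25a15 lie above it and Slc25a23 and Slc25a44 below.

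The KO to WT difference was larger at FGO than at GO for all 31 members as deposited, as it was for 97.5% of all genes. The median shift was 0.88, beside 0.80 for all genes. Shifts of 2-fold or more were seen in 9 members, beside 29% of all genes, and 0 shifts of 2-fold or more downward, beside 0.148%. Among the largest were those of Slc25a15 (1.39), Slc25a40 (1.36), Slc25a26 (1.36) and Slc25a3 (1.13). After rescaling 22 of 31 (71.0%) were above 0, beside 52.3% of all genes, with a median of 0.07, and 0 reached 2-fold, beside 1.94% of all genes. From NGO to GO the shift was 2-fold or more in Slc25a30 (1.09) and Slc25a36 (1.02), beside 0.999% of all genes. After rescaling Slc25a30 passed (1.09), beside 0.603% of all genes, and Slc25a36 did not (0.87). From NGO to FGO the shift was 2-fold or more in 18 members, beside 36.5% of all genes, and downward in 0, beside 0.109%. After rescaling it was 2-fold in Slc25a30 alone, beside 2.18% of all genes. At NGO both Slc25a30 and Slc25a36 were under 1 FPKM in KO and in WT.

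Other mitochondrial transport genes are set beside the family. The import route of carriers runs through the outer membrane TOM complex and receptor, the small TIM chaperones and TIM22. Of its 15 genes compared, 0, 0 and 3 were at least 2-fold higher in KO at NGO, GO and FGO, and 0, 1 and 0 at least 2-fold lower. The FGO count stands beside 25.8% of all genes, and after rescaling it was 0, beside 1.68%. The count lower at GO stands beside 2.03% of all genes, and after rescaling it was still 1, beside 1.28%. The 3 higher were Tomm70a, the receptor for carriers, at 8.39 FPKM in KO FGO and 2.69 FPKM in WT FGO, Timm29 at 7.87 and 2.59 FPKM, and Tomm20 at 10.9 and 4.64 FPKM. The lower one was Timm8b, a small chaperone, at 2.64 FPKM in KO GO and 6.96 FPKM in WT GO. The medians were -0.21, -0.25 and 0.57 as deposited and -0.04, -0.18 and -0.07 after rescaling. Timm9, a chaperone of carriers, was the most abundant at 1166 FPKM in KO FGO and 938 FPKM in WT FGO.

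Of 14 other mitochondrial transporters and channels compared, 3 were at least 2-fold higher in KO at FGO, 0 at NGO and GO, and 0 were 2-fold lower at any stage. The FGO count stands beside 25.8% of all genes, and after rescaling it was 0, beside 1.68%. Among them were Abcb8, of the mitochondrial ABC transporters, at 34.97 FPKM in KO FGO and 11.9998 FPKM in WT FGO, and the calcium uniporter regulator Micu2 at 37.8 FPKM in KO FGO and 16.8 FPKM in WT FGO. Their medians were -0.16, -0.14 and 0.54 as deposited and -0.01, -0.08 and -0.22 after rescaling. Vdac3, a channel of the outer membrane, was at 604 FPKM in KO FGO and 417 FPKM in WT FGO. The pyruvate carrier genes Mpc1 and Mpc2 were at 9.11 and 93.7 FPKM in KO FGO and at 7.80 and 88.1 FPKM in WT FGO.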

How the data were processed

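RNA of mouse oocytes was measured in 12 samples, 2 per genotype and stage, by Smart-seq2 with 150 bp paired reads from 500 pg of cDNA. Per the submitters' processing notes, Trim Galore 0.6.7, HISAT2 2.2.1, Cufflinks 2.2.1 and mm10 were used. The deposited values are FPKM adjusted by the authors to the ERCC spike-in, as the file is named. The sources used here give neither the formula and annotation nor whether a column is a mean, a pool or 1 sample.

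Of 25912 lines, 2 held error marks and were left out, and of symbols on several lines the one with the largest mean was kept. Every member stands on 1 line. Differences are of log2(FPKM + 1) over genes averaging 1 FPKM or more, described by counts at 2-fold and medians, since 1 column per group allows no test. Rescaling factors were 0.453, 1.22 and 2.26 for KO and 0.514, 1.29 and 1.31 for WT at NGO, GO and FGO. Near-identical transcripts were sought in GENCODE M21 with blastn (identity of 95% or more along 50% or more of a member's longest transcript), and promoters and coordinates came from RefSeq on GRCm38.p6. 1 member compared and 1 other transport gene are counted but not reported here by name or drawn. Every other member compared was named, with all columns given for the 10 of largest mean, those 2-fold apart on either scale and the 5 of largest shift; values of the remaining members were added to these. Members and lists were chosen with earlier results of these data known. Steps were tested on simulated data, with Python 3.11.15.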

Additional observations from a re-analysis of the deposited data

How the results depend on the processing

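Values without replicates carry no error, and the scale decides most counts. With median-ratio scaling the members' median moved to -0.028 at NGO and 0.089 at FGO for KO against WT, and 2 members were 2-fold higher at FGO. The median step from NGO to GO turned to -0.027 in KO, and was -0.17 in WT, with 1 member higher and 1 lower in each. The median step from GO to FGO in KO was -0.12, with 1 higher and 1 lower. With equal column totals the KO to WT medians were 0.036, 0.082 and 0.21 at NGO, GO and FGO, with 2 members higher at GO and 2 at FGO. The NGO to GO medians were then -0.023 in KO, again turned, with 1 higher and 1 lower, and -0.14 in WT, with 2 higher and 1 lower. The GO to FGO medians were -0.26 in KO, with 1 higher and 4 lower, and -0.35 in WT.

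Shares of all genes were not computed for equal column totals, a pseudocount of 0.1 or a mean of at least 5. The counts at these settings therefore describe the members alone. With a pseudocount of 0.1, 2 members were higher and 1 lower in KO at GO. From GO to FGO 8 were then lower in WT and 1 in KO, and the NGO to GO medians were 1.37 in KO and 1.15 in WT. With no filter the medians of all 47 members were -0.034 at NGO and 0.68 at FGO for KO against WT, 0.92 in KO and 0.63 in WT from NGO to GO, and 0.27 from GO to FGO in KO. A mean of at least 5 was reached by 23 members, and Slc25a36, with a mean of 2.40 FPKM, was not among them. Of these 23, 0 were higher in KO at GO and 7 at FGO, and 2 were lower from GO to FGO in WT. Their NGO to GO median in WT was 1.11. Each of these scalings (median-ratio and equal totals) ended the 2-fold call of 10 of the 12 members higher in KO FGO. None of those 12 changed direction. After median-ratio scaling the KO to WT ratio of FPKM at FGO was still 2.24 for Slc25a25 and 2.07 for Slc25a33. Their calls ended on the log2(FPKM + 1) scale, which understates changes of low genes. Leaving out Slc25a5, a choice made after seeing the data, moved no KO to WT count at NGO, GO or FGO, and left 7 of the 8 members higher from GO to FGO in KO. No paired analysis was possible because the table holds 1 column per group and no replicate columns, and leaving out a replicate could not be run for the same reason.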

Other observations

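Carrier family genes under other symbols were mostly low. Ucp1 and Ucp3 were listed at 0 in every column. Ucp2, an uncoupling protein of many tissues, was at 0.726, 0.143 and 3.76 FPKM in KO at NGO, GO and FGO, and at 0.282, 0.238 and 0.611 FPKM in WT. Mtch1, which helps insert proteins into the outer membrane, was at 1.40, 1.51 and 2.26 FPKM in KO, against 1.75, 4.01 and 3.04 FPKM in WT, and so was lower in KO at each stage. Its GO difference of -0.999 was just short of 2-fold on the log2(FPKM + 1) scale. That rests on the pseudocount, as its FPKM values at GO were more than 2-fold apart. Its paralogue Mtch2 was at 0.362, 0.349 and 1.24 FPKM in KO, against 0.419, 0.945 and 0.809 FPKM in WT.

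Transcript length had a Spearman rho with the KO to WT difference of 0.22 at NGO, 0.11 at GO and -0.0029 at FGO over 9941 genes, and of 0.19, -0.08 and 0.06 over the 31 members. These are descriptions across genes that share columns. The longest transcripts of the members had a median of 3145 nt, against 3233 nt for all genes compared.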
